A study of Mus musculus with 22 samples.

Results

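The immediate early transcription factors of the AP-1 and EGR families were followed through the conversion of mouse cardiac fibroblasts into induced cardiomyocytes. The members were the FOS family genes Fos, Fosb, Fosl1 and Fosl2, the JUN family genes Jun, Junb and Jund, and the EGR family genes Egr1, Egr2 and Egr3, taken by gene name as 10 of the 34378 names in the deposited expression table. Of these, 9 were measured: Egr3 had 1 probe, and it was well above background on 0 of the 22 arrays, so no level is given for it. The measured members were well above background on all 22 arrays.

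Total RNA of cultured cardiac fibroblasts (CF) of CD1 mice carrying the aMHC-GFP reporter, a fluorescent protein driven by the promoter of a heart muscle myosin gene, was hybridised in 1 colour to Agilent mouse arrays. Cells labelled MGT had received a retrovirus with Mef2c, Gata4 and Tbx5 in a single transcript, cells labelled lacZ a control virus, and both were collected 3, 5, 7, 10 and 14 days later. Untransduced CF at day 0 were the starting point. Each of the 11 groups had 2 arrays, and the labels give neither the animals behind an array nor a sorting step, so p-values measure only the spread between these arrays, which may be technical.

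AP-1 is a dimer of a JUN protein with a FOS protein or with another JUN protein, and it binds a short palindrome in promoters and enhancers. EGR proteins bind GC-rich sites through zinc fingers. Genes of both families are called immediate early because serum and growth factors switch several of them on within minutes, through MAP kinases and serum response factor (SRF), without new protein synthesis. In cultured fibroblasts they are known for driving proliferation, matrix remodelling and responses to stress.

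The promoters of Jun, Fos, Egr2 and Fosb are shown first, because they hold kinds of sites that signals to immediate early genes are known to act through. They were picked from the members with a RefSeq window, which Fosl1, Jund and Egr3 lacked. Each line gives the 120 bases just before a RefSeq start site on GRCm38.p6, read 5′ to 3′ on the strand of the gene. Jun lies at chr4:95052223-95052342 on the minus strand, Fos at chr12:85473770-85473889 on the plus strand, Egr2 at chr10:67537749-67537868 on the plus strand and Fosb at chr7:19310046-19310165 on the minus strand. Capitals mark TGACATCA and a MEF2 site in Jun, TGACGT in Fos, a CArG box and the reverse complement of TGACGT in Egr2, and GCGGGGGCG in Fosb.
Jun: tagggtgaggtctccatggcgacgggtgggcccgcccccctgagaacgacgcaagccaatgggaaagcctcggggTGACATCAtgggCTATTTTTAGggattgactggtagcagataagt
Fos: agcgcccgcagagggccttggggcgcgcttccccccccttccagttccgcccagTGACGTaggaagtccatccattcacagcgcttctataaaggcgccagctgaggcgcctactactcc
Egr2: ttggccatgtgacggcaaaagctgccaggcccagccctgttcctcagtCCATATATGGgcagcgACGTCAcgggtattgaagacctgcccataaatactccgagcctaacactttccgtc
Fosb: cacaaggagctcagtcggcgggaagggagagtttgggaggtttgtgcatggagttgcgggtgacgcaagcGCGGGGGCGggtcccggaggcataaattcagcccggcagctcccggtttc
In Jun the MEF2 site, the kind of site that the MEF2C protein of the MGT virus is known to bind, began 33 bases before the start, and TGACATCA, a variant of the cAMP response element, began 45 bases before it. The CArG box of Egr2, the site of SRF, began 72 bases before the start printed here. Both strands of 300-base windows, 250 before and 50 after each start, were searched, and 7 of the 10 members had at least 1 window in the RefSeq table. A MEF2 site was found in 3.187% of all 32851 windows, a CArG box in 1.629%, TGACATCA in 3.619%, TGACGT in 7.513% and GCGGGGGCG in 2.907%. Besides Fosb, GCGGGGGCG was found in Fosl2, 79 bases before the start. TGACTCA, TGACGTCA, GCGTGGGCG and AGGTGTGA were also searched and were not in the windows of Jun, Junb, Fos, Fosb, Fosl2 and Egr2, while 5.202%, 1.79%, 0.612% and 1.275% of all windows held them. AGATAA, found in 11.178% of all windows, began 8 bases before the start of Jun. TATAAA, found in 13.616%, began 33 bases before the start of Fos and at the start of Junb. The window of Egr1, the seventh member, was not used here. TGACGT lies within TGACGTCA, so every window with the longer motif also holds the shorter. These matches describe letters, not binding.

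Levels below are log2 of the processed intensity minus the 75th percentile of the same array, so 0 is the level of that percentile and a step of 1 is a 2-fold difference. A difference is called when the p-value of limma, adjusted by Benjamini-Hochberg over all genes tested, was under 0.05. In whole cultures, fewer cells of a type and less RNA per cell cannot be told apart. All 10 fibroblast markers were well above background on all arrays, but only 4 of the 8 cardiomyocyte markers were. All 8 were higher in MGT than in lacZ cells averaged over days, where 23.3% of all genes were called higher. A probe could be kept through the MGT groups alone, which favours that direction. The count is therefore not read as a result, and no size is given. Between 48.4% and 71.0% of spots were well above background on an array. The second day 14 lacZ array stood apart, with a 75th percentile of 729 intensity units, against 1285 to 2124 units on the other arrays. Days 3 and 5 shared a slide, days 7 and 10 shared another, day 0 lay with day 14 lacZ on the third and day 14 MGT lay alone on the fourth. For day 14 MGT against any other group, and for day 3 against day 0, slide and group therefore cannot be told apart.

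**Figure D1:**
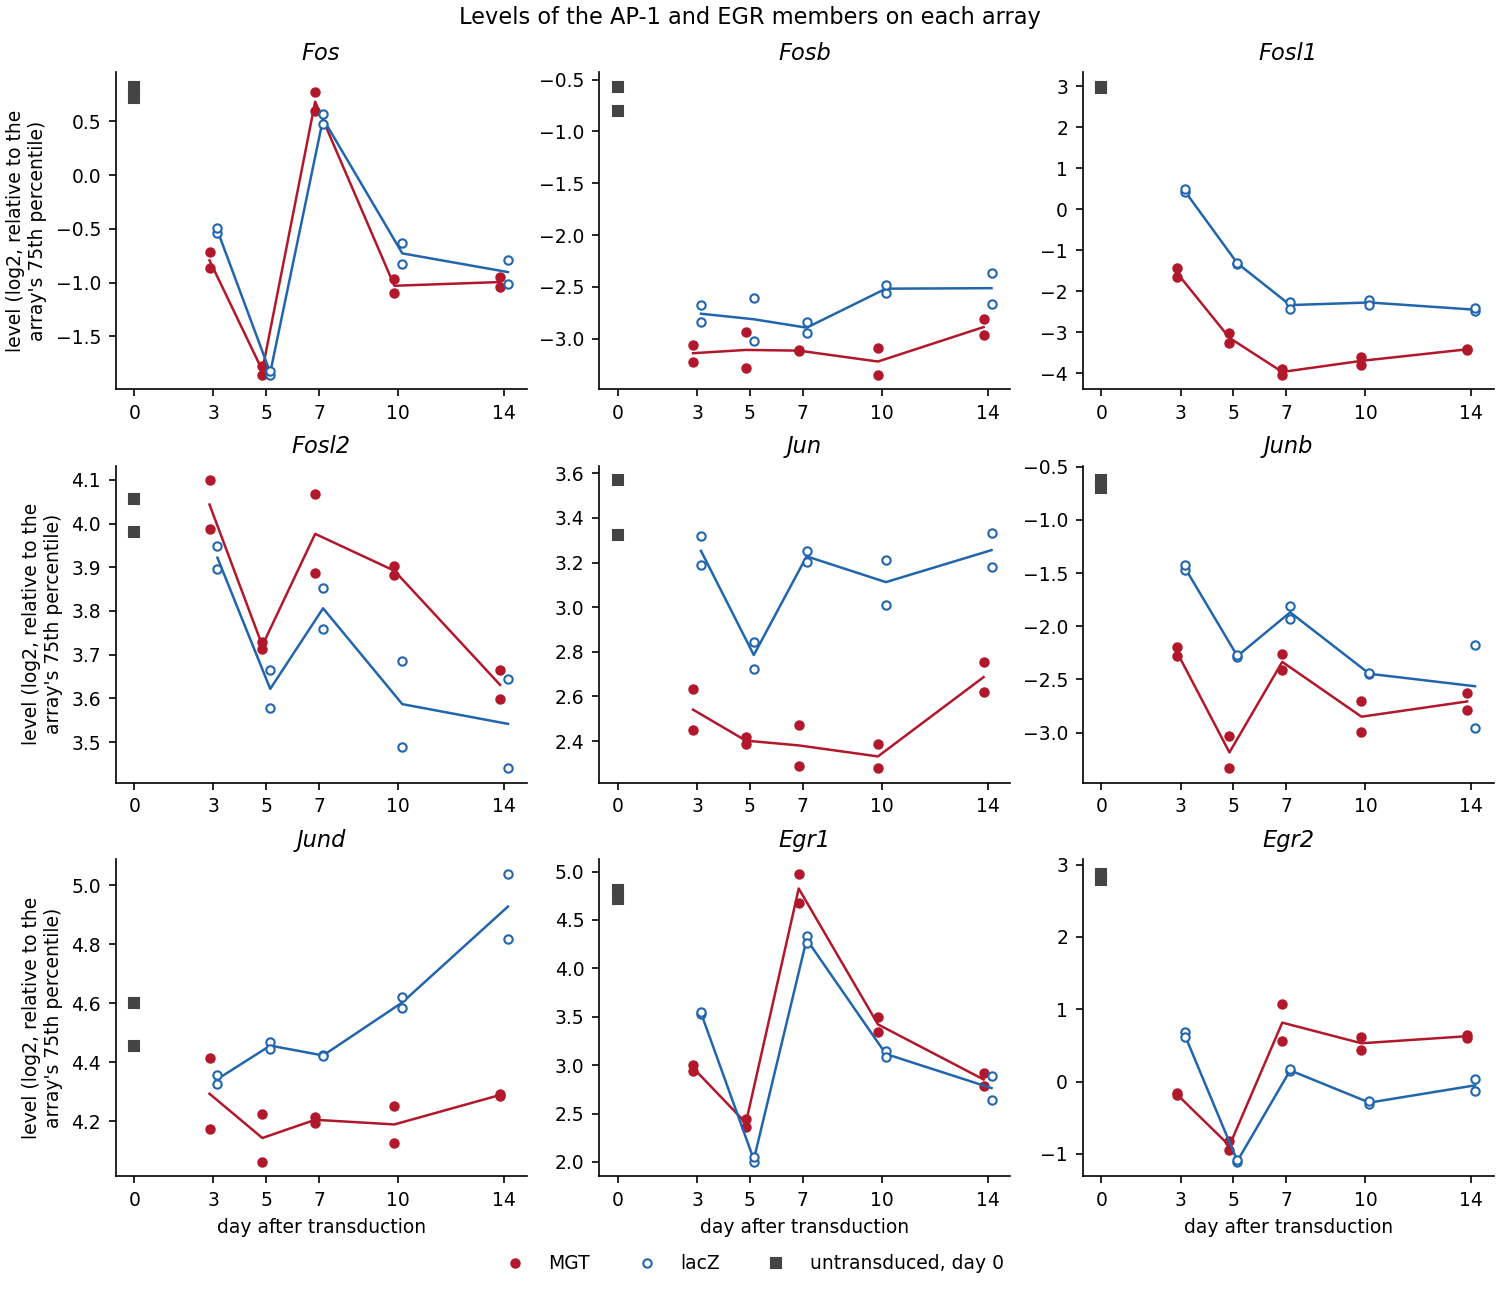
Level (log2, relative to the 75th percentile of the array; the scale differs between panels) of the 9 measured members on each array against the day after transduction. Points are arrays, lines join the means of the 2 MGT or 2 lacZ arrays of each day, and squares are untransduced cells. Fosl1 lies lower in MGT than in lacZ cells on all 5 days, and Fos and Egr1 stand high at day 0 and day 7 with both vectors.

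Averaged over the 5 days, Fosl1, Jun, Junb, Fosb and Jund were lower in MGT cells than in lacZ cells, and Egr2, Fosl2 and Egr1 were higher. These 8 calls among 9 measured members stand beside 63.9% of all genes called in the same comparison, so the share called is not a result about the members. The median difference of the members was -0.33, beside -0.086 over all genes. The largest size was a 2.96-fold lower level of Fosl1, and the smallest called were 1.11-fold higher levels of Egr1 and of Fosl2. The largest rise was that of Egr2, at 0.31 on the log2 scale. Fos differed by -0.10 ± 0.04 (SE, adjusted p = 0.0628).

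Fosl1 encodes FRA-1, the AP-1 subunit known for invasive and mesenchymal behaviour of cells. Its probe lies at chr19:5455496-5455555 of mm9. At day 0 its level was 2.996 and 2.957. In MGT cells it was -1.64 and -1.43 at day 3, -3.26 and -3.01 at day 5, -4.03 and -3.89 at day 7, -3.79 and -3.60 at day 10, and -3.40 and -3.43 at day 14. In lacZ cells it was 0.42 and 0.50 at day 3, -1.33 and -1.30 at day 5, -2.25 and -2.42 at day 7, -2.21 and -2.33 at day 10, and -2.48 and -2.41 at day 14. Both MGT arrays lay below both lacZ arrays on every day, and no transduced array came near the level of day 0. The difference between MGT and lacZ cells was -1.99 ± 0.10 at day 3 (SE, adjusted p = 1.11e-08), -1.82 on day 5, -1.63 on day 7 and -1.42 on day 10. It was -0.97 ± 0.10 at day 14 (adjusted p = 5.4e-06). All 5 were called under each alternative setting run. The gap narrowed by 1.03 ± 0.14 between day 3 and day 14 (adjusted p = 0.000226).
Ordered by level, the groups of Fosl1 were day 0, lacZ at day 3, lacZ at day 5 and MGT at day 3, followed by lacZ at days 10, 7 and 14, whose arrays overlapped, and then MGT at days 5, 14, 10 and 7. Its level at day 14 was 83.7-fold below day 0 in MGT cells and 42.9-fold below day 0 in lacZ cells, the second of these on 1 slide. On the log2 scale these were -6.39 ± 0.10 in MGT cells and -5.42 ± 0.10 in lacZ cells (SE, adjusted p = 2.59e-14 and 1.97e-13).

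Fosb encodes an AP-1 subunit that is among the fastest induced, and it too was highest at day 0. Its level was -0.81 and -0.57 at day 0, between -3.35 and -2.81 on the 10 MGT arrays and between -3.02 and -2.36 on the 10 lacZ arrays. All transduced arrays thus lay below both day 0 arrays, and neighbouring groups overlapped in most of the rest of the order. At day 10 it was -3.35 and -3.09 in MGT cells, against -2.55 and -2.48 in lacZ cells. That difference of -0.70 ± 0.16 (SE, adjusted p = 0.00344) was called, and those of days 3, 5, 7 and 14 lay between -0.38 and -0.22 and were not. At day 14 it was -0.38 (adjusted p = 0.0703), and -0.53 (adjusted p = 0.0384) without the second day 14 lacZ array.

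Fosl2 encodes FRA-2, a FOS family protein with slower kinetics than FOS. On its brighter probe the level kept within 3.60 to 4.10 in MGT cells, 3.44 to 3.95 in lacZ cells and 3.98 to 4.05 at day 0, the narrowest range of the FOS family. Averaged over days it was higher in MGT cells by 0.16 ± 0.04 (SE, adjusted p = 0.00332). Within the slide of days 3 and 5 the difference was 0.11 (adjusted p = 0.171), and within that of days 7 and 10 it was 0.24 (adjusted p = 0.00604). A second Fosl2 probe, much dimmer and above background on 21 arrays, gave 0.20 (adjusted p = 0.261).

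Jun, the founding AP-1 subunit, was lower in MGT cells on each day. Its probe lies at chr4:94716928-94716987 of mm9 on the minus strand. Jun stood at 3.32 and 3.57 at day 0. In MGT cells it was 2.45 and 2.63 at day 3, 2.42 and 2.39 at day 5, 2.47 and 2.29 at day 7, 2.28 and 2.39 at day 10, and 2.62 and 2.75 at day 14. In lacZ cells it was 3.32 and 3.19 at day 3, 2.85 and 2.73 at day 5, 3.20 and 3.25 at day 7, 3.01 and 3.21 at day 10, and 3.33 and 3.18 at day 14. The highest MGT array, at day 14, lay below 9 of the 10 lacZ arrays, and MGT and lacZ did not overlap on any day. The difference was -0.71 ± 0.11 at day 3 (SE, adjusted p = 0.000226), -0.38 at day 5 (adjusted p = 0.0127), -0.85 ± 0.11 at day 7 (adjusted p = 3.28e-05), -0.78 on day 10 and -0.57 ± 0.11 at day 14 (adjusted p = 0.000788). Averaged over days it was 1.58-fold lower. The calls of days 5 and 14 were not kept in every setting. With normexp correction, which started from the mean and not the processed spot intensity, the day 14 difference was -0.22 (adjusted p = 0.289). The day 5 difference there was -0.43 (adjusted p = 0.0849). The deposited table gave -0.16 (adjusted p = 0.471) and -0.37 (adjusted p = 0.122) for the same days.
Against day 0, Jun fell in MGT cells by 0.91 at day 3 and by 0.76 at day 14. In lacZ cells it stood 0.19 below day 0 on both days, which was not called (adjusted p = 0.142 and 0.133). For lacZ day 14 it was called in 3 of 14 other settings, at -0.51 with normexp correction (adjusted p = 0.0189), -0.48 in the deposited table (adjusted p = 0.024) and -0.31 without the first day 0 array (adjusted p = 0.0425). Without the second day 0 array it was -0.068.

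Junb encodes a JUN protein that can restrain JUN, and it was called lower in MGT cells at days 3 and 5. Both MGT arrays, -2.28 and -2.19 at day 3 and -3.34 and -3.04 at day 5, lay below both lacZ arrays, -1.47 and -1.42 at day 3 and -2.29 and -2.27 at day 5. Junb differed between MGT and lacZ cells by -0.79 ± 0.19 at day 3 (SE, adjusted p = 0.00604) and by -0.91 ± 0.19 at day 5 (adjusted p = 0.00186). The day 3 call was lost with the deposited table (adjusted p = 0.0618). At day 14 it was -2.63 and -2.78 in MGT cells and -2.17 and -2.95 in lacZ cells, so the groups overlapped. The difference there was -0.14 (adjusted p = 0.563). It was -0.53 (adjusted p = 0.00678) without the second day 14 lacZ array and 0.25, not called, without the first. The change of the difference between day 3 and day 14 was 0.65 and was not called (adjusted p = 0.0896). It was 0.26 (adjusted p = 0.297) without the second day 14 lacZ array and 1.04 (adjusted p = 0.000569) without the first, which was the 1 call among 18 other settings.

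Jund, which is expressed constitutively in many cells and is known for slowing fibroblast growth, had a larger gap between vectors at day 14 than at day 3. Its level was 4.45 and 4.60 at day 0. In MGT cells it was 4.17 and 4.41 at day 3, 4.06 and 4.22 at day 5, 4.19 and 4.21 at day 7, 4.13 and 4.25 at day 10, and 4.28 and 4.29 at day 14. In lacZ cells it was 4.36 and 4.33 at day 3, 4.47 and 4.44 at day 5, 4.42 and 4.42 at day 7, 4.58 and 4.62 at day 10, and 5.04 and 4.82 at day 14. The vectors overlapped at day 3 and not on later days, and the highest arrays of all were the day 14 lacZ pair. Jund differed between MGT and lacZ cells by -0.050 at day 3 (adjusted p = 0.768), by -0.31 at day 5 (adjusted p = 0.016), by -0.22 on day 7 (adjusted p = 0.0815), by -0.41 ± 0.09 at day 10 (SE, adjusted p = 0.00289) and by -0.64 ± 0.09 at day 14 (adjusted p = 8.38e-05). The day 5 call held in 7 of 14 other settings (adjusted p up to 0.146), and those of days 10 and 14 were lost in fits of only their 4 arrays (adjusted p = 0.0641 and 0.0546). The change from day 3 to day 14 was -0.59 ± 0.13 (adjusted p = 0.00482). It was -0.70 (adjusted p = 0.00163) without the second day 14 lacZ array, and missed the threshold in a fit of only the 8 arrays concerned (adjusted p = 0.0589). In lacZ cells Jund was 0.40 ± 0.09 above day 0 at day 14 (adjusted p = 0.00164). It was the member that rose against day 0, and the call was lost in the fit of only those 4 arrays (adjusted p = 0.0955).

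Egr1 and Egr2, activators that are known to be induced together by serum, changed side between day 3 and day 7. Egr1 was 4.80 and 4.72 at day 0. In MGT cells it was 2.943 and 3.002 at day 3, 2.36 and 2.44 at day 5, 4.98 and 4.67 at day 7, 3.50 and 3.35 at day 10, and 2.92 and 2.78 at day 14. With lacZ it was 3.53 and 3.55 at day 3, 2.0003 and 2.048 at day 5, 4.34 and 4.26 at day 7, 3.14 and 3.09 at day 10, and 2.64 and 2.89 at day 14. MGT arrays lay below lacZ arrays at day 3, above them at days 5, 7 and 10, and among them at day 14. The difference was -0.57 ± 0.10 at day 3 (SE, adjusted p = 0.000917), 0.38 at day 5 (adjusted p = 0.0105), 0.53 ± 0.10 at day 7 (adjusted p = 0.00115), 0.31 at day 10 (adjusted p = 0.0311) and 0.089 at day 14 (adjusted p = 0.505). The calls of days 5, 7 and 10 were each lost in at least 1 other setting, with adjusted p of 0.0702 at day 5 without the second MGT array, 0.0504 at day 7 with only the arrays of the comparison and 0.194 at day 10 without the first MGT array.

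Egr2, known for its part in myelination and in the T cell response, was 2.87 and 2.79 at day 0, and its probe lies at chr10:67004798-67004857 of mm9. In MGT cells it was -0.16 and -0.18 at day 3, -0.95 and -0.82 at day 5, 1.07 and 0.56 at day 7, 0.62 and 0.44 at day 10, and 0.65 and 0.61 at day 14. The lacZ arrays gave 0.68 and 0.62 at day 3, -1.11 and -1.09 at day 5, 0.14 and 0.17 at day 7, -0.31 and -0.27 at day 10, and -0.13 and 0.03 at day 14. MGT arrays were the lower pair at day 3 and the higher pair on each later day. The difference was -0.82 ± 0.12 at day 3 (SE, adjusted p = 0.000208), 0.21 at day 5 (adjusted p = 0.203), 0.66 ± 0.12 at day 7 (adjusted p = 0.000843), 0.82 ± 0.12 at day 10 (adjusted p = 0.000146) and 0.68 ± 0.12 at day 14 (adjusted p = 0.000584). Without the first day 7 MGT array the day 7 difference was 0.41 and still called, and in a fit of only the 4 arrays of that day its call was lost (adjusted p = 0.0714). With normexp correction the day 14 difference was 0.43 (adjusted p = 0.0507), and in the deposited table it was 0.41 (adjusted p = 0.1).
The change itself was tested. Between day 3 and day 14 the difference of Egr2 moved by 1.50 ± 0.17 (adjusted p = 5.36e-05) and that of Egr1 by 0.66 ± 0.15 (adjusted p = 0.00496). Between day 3 and day 7, a comparison added after the values were seen, it moved by 1.48 ± 0.17 (adjusted p = 0.000116) for Egr2 and by 1.09 ± 0.15 (adjusted p = 0.000284) for Egr1. These were the 2 members called there, both upwards, where 12.2% of all genes were called and 5.68% upwards. The averages over days of both genes therefore hold opposite signs, and within the slide of days 3 and 5 they were -0.31 (adjusted p = 0.0116) for Egr2 and -0.095 (adjusted p = 0.32) for Egr1, against 0.74 (adjusted p = 1.01e-05) and 0.42 (adjusted p = 0.000328) within the slide of days 7 and 10.

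**Figure D2:**
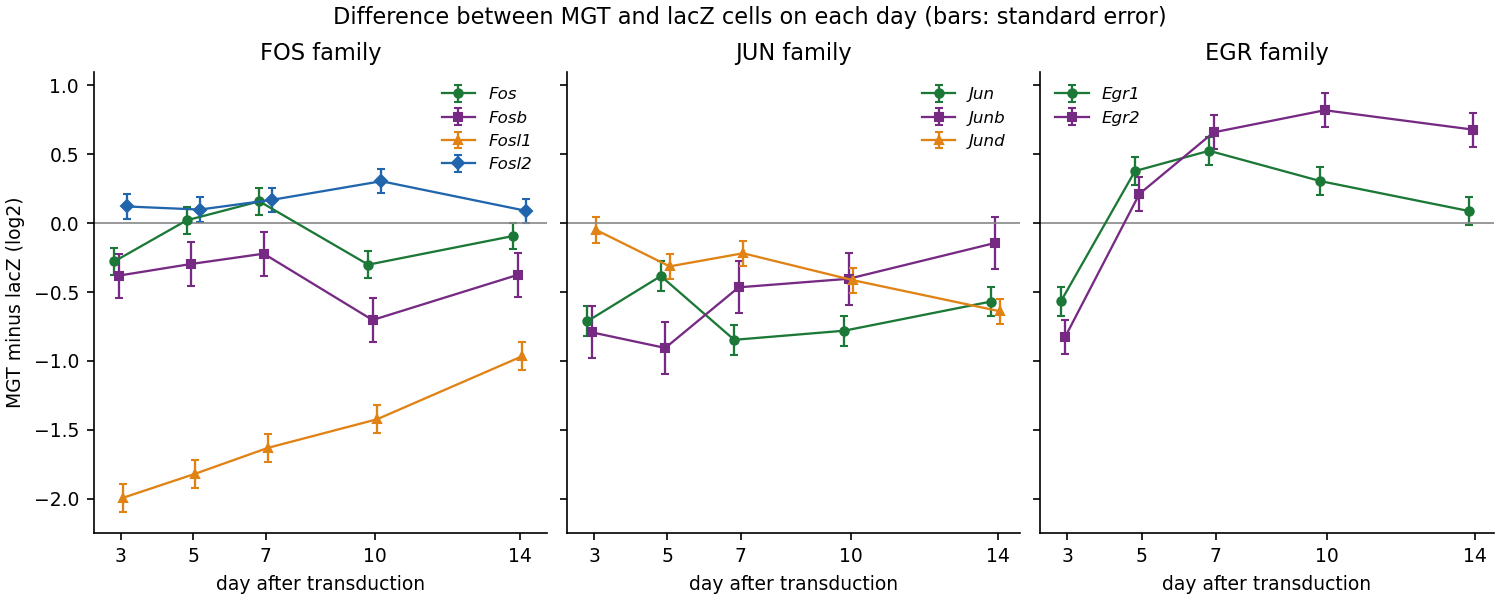
MGT minus lacZ difference (log2) of each measured member against the day after transduction, with standard errors from the model over all 22 arrays. Fosl1 climbs from -1.99 at day 3 to -0.97 at day 14 and stays below 0, Jund lies at -0.050 at day 3 and -0.64 at day 14, and Egr1 and Egr2 cross from below 0 at day 3 to above 0 at day 7.

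By day, 6 of the 9 measured members were called at day 3, all lower in MGT cells, where 30.4% of all genes were called and 18.1% were lower. At day 5 it was 1 higher and 4 lower, where 38.1% of all genes were called, 16.2% higher and 21.9% lower. At day 7 it was 2 higher and 2 lower, where 37.3% of all genes were called, 14.9% higher and 22.4% lower. At day 10 it was 3 higher and 5 lower, where 39.4% of all genes were called, 15.2% higher and 24.2% lower. At day 14 it was 1 higher and 3 lower, where 47.6% of all genes were called, 18.3% higher and 29.3% lower. The share of members called was furthest above that of all genes at days 3 and 10. Arrays of the vectors did not overlap for 8 members at day 3 (74.8% of all genes), 7 on day 5 (76.4%), 9 on day 7 (71.4%), 9 on day 10 (66.3%) and 5 on day 14 (69%). The change from day 3 to day 14 was called for 4 members, Egr2, Fosl1 and Egr1 upwards and Jund downwards, beside 27.6% of all genes, 12.3% upwards and 15.2% downwards.

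Fos, the classical immediate early gene and the partner of JUN, hardly separated the vectors but moved with the day. For this gene 10 spots of 1 probe, at chr12:86817900-86817959 of mm9, were averaged. Fos stood at 0.82 and 0.71 at day 0. In MGT cells it was -0.72 and -0.87 at day 3, -1.77 and -1.86 at day 5, 0.77 and 0.59 at day 7, -1.10 and -0.96 at day 10, and -1.04 and -0.94 at day 14. The lacZ arrays gave -0.54 and -0.49 at day 3, -1.85 and -1.82 at day 5, 0.57 and 0.48 at day 7, -0.82 and -0.63 at day 10, and -0.79 and -1.01 at day 14. The MGT arrays of day 7 overlapped those of day 0, the lacZ arrays of day 7 came just below, and the 4 arrays of day 5 were the lowest of the 22. Between vectors, -0.28 at day 3 (adjusted p = 0.0452) and -0.30 at day 10 (adjusted p = 0.0252) were called. The first was lost when any of its 4 arrays was left out (adjusted p = 0.0521 to 0.282), and the second reached adjusted p = 0.176 without the second lacZ array.

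The same days stood out for Egr1, whose order of levels began with MGT at day 7 and day 0, which overlapped, and ended with MGT and then lacZ at day 5. Steps between days that share a slide were tested, but within each of these slides a day has a row of the slide to itself, so row and day cannot be told apart. At day 10 against day 7, Fos differed by -1.71 ± 0.10 in MGT cells (SE, adjusted p = 3.3e-06) and by -1.25 ± 0.10 in lacZ cells (adjusted p = 2.1e-05). Egr1 differed by -1.40 ± 0.10 in MGT cells (adjusted p = 1.37e-05) and by -1.18 ± 0.10 in lacZ cells (adjusted p = 4.86e-05). These 2 members were called in MGT cells, where 4.56% of all genes were called and 2.35% were lower. They and Egr2 (-0.45, adjusted p = 0.042) were called in lacZ cells, where 9% were called and 5.13% were lower. The Egr2 call was lost in 8 other settings. In fits of only the 4 arrays of each vector, none of the members was called, with adjusted p of 0.0622 and 0.0732 for Fos and Egr1 in MGT cells and 0.157 for both in lacZ cells. Those fits called 2 of all genes in MGT cells and 0 in lacZ cells.
Of 21 other immediate early genes measured, 1 was higher and 4 were lower in MGT cells at day 10 against day 7, and 0 were higher and 3 lower in lacZ cells. Ier2, named here after its values were seen, differed by -0.98 in MGT cells and by -0.11 in lacZ cells, the second not called. The other 16 and 18 genes of the list were not called in this step. Heat shock genes, which respond to handling of cells, averaged 4.26 at day 7 and 4.30 at day 10 in MGT cells, and 4.36 and 4.43 in lacZ cells. Of the 8 measured, 1 was higher in MGT cells and 0 in lacZ cells at day 10 against day 7, and 0 were lower in either.

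At day 5 against day 3, 6 members fell in MGT cells, beside 27.5% of all genes called and 14.1% lower, and 7 fell in lacZ cells, beside 29.6% called and 15.6% lower. Fosl1 differed by -1.59 ± 0.10 in MGT cells (SE, adjusted p = 3.85e-07) and by -1.77 ± 0.10 in lacZ cells (adjusted p = 3.21e-07), and Fos by -1.02 and -1.32. Egr1 differed by -0.57 in MGT cells and by -1.52 in lacZ cells, and Egr2 by -0.71 and -1.75. Junb differed by -0.95 in MGT cells and by -0.84 in lacZ cells. Jun differed by -0.14 (adjusted p = 0.387) in MGT cells and by -0.47 (adjusted p = 0.00577) in lacZ cells, and the lacZ call was lost with normexp correction (adjusted p = 0.0775). Fosb and Jund were not called with either vector, and whether a step differed between the vectors was not tested. Among the 21 other immediate early genes, 2 were higher and 6 lower in MGT cells and 0 higher and 16 lower in lacZ cells.

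**Figure D3:**
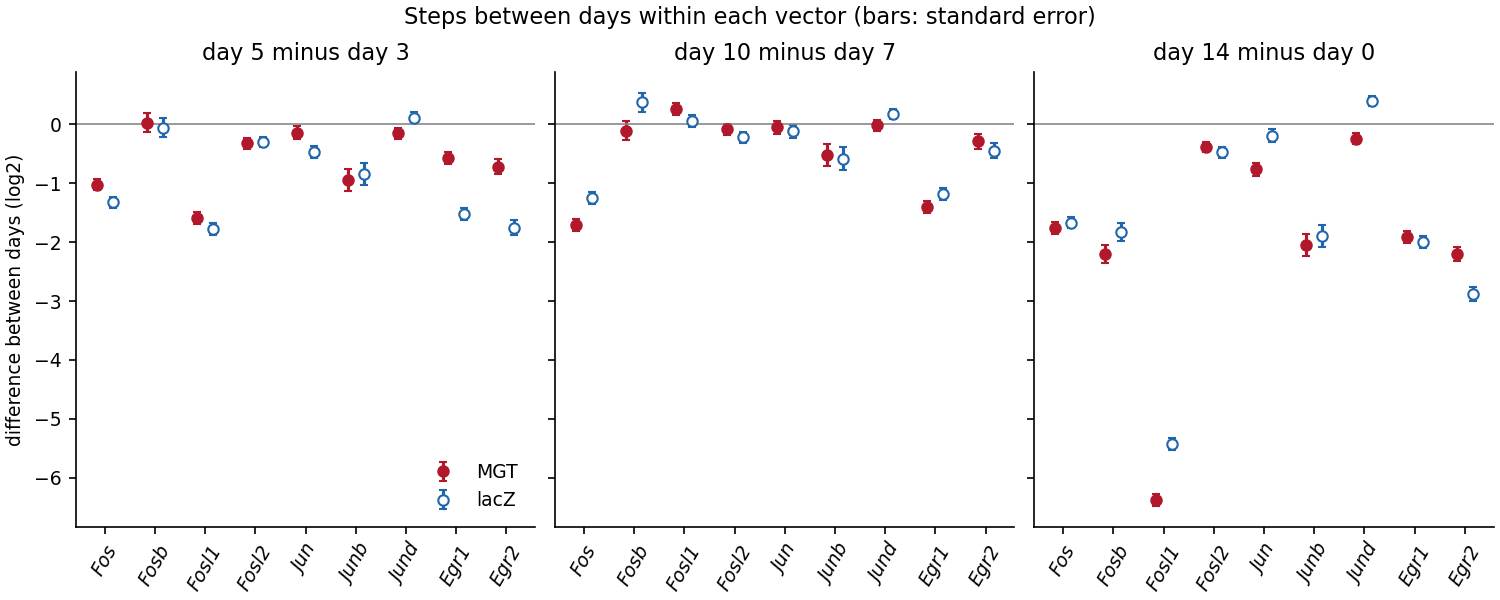
Difference between days (log2, with standard errors) of each measured member within MGT and within lacZ cells. Days 3 and 5 share a slide, as do days 7 and 10 and day 0 with day 14 lacZ, while day 14 MGT lies on a slide of its own. The step from day 7 to day 10 holds Fos and Egr1 well below 0 and most other members near it, and Fosl1 has the largest fall from day 0 to day 14.

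Most members were lower than at day 0. At day 3, 8 fell in MGT cells, where 62.4% of all genes were called and 33.1% were lower, and 6 fell in lacZ cells, where 57.8% were called and 29% were lower. At day 14 all 9 measured members fell in MGT cells, where 70.5% of all genes were called and 37.4% were lower. In lacZ cells 7 fell and 1, Jund, rose, where 68.9% were called, 35.5% higher and 33.4% lower. The median difference of the members at day 14 was -1.91 in MGT cells and -1.83 in lacZ cells, beside -0.051 and 0.055 over all genes. The Jund calls in MGT cells, -0.23 at day 3 and -0.24 at day 14, were lost in 9 and 8 other settings.
Egr2 differed from day 0 by -3.002 at day 3 and -2.203 at day 14 in MGT cells, and by -2.18 and -2.88 in lacZ cells. Egr1 differed by -1.79 and -1.91 in MGT cells, and by -1.22 and -2.00 in lacZ cells. Fosb differed by -2.45 and -2.20 in MGT cells, and by -2.07 and -1.83 in lacZ cells. All of these lay outside the spread of the arrays, and the comparisons share the 2 day 0 arrays. Of the 21 other immediate early genes, 1 rose and 18 fell in MGT cells at day 14, and 4 rose and 16 fell in lacZ cells. Other lists also differed between day 0 and the transduced groups, and not all in the same direction. Heat shock genes averaged 5.30 at day 0 and between 4.26 and 4.83 in the transduced groups, with Hspa1a, named after its values were seen, at a difference of -3.59 at day 14 in MGT cells and of -3.93 in lacZ cells. Endothelial markers averaged lower at day 14 with both vectors than at day 0. Only 4 of the 8 were above background on all arrays, so no size is given for them. Macrophage markers, of which 9 of 10 were above background on all arrays, averaged 1.138 at day 0, 3.098 in MGT cells and 3.644 in lacZ cells at day 14, with 8 and 9 of 10 called higher. Their part in the members' levels was not tested.

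The members' surroundings in the pathway were read from lists. Among the 21 other immediate early genes, 4 were higher and 14 lower in MGT cells averaged over days, with a median of -0.20. Btg2, an antiproliferative factor, was higher by 1.54, and Klf2, a zinc finger factor of quiescent cells, and Myc differed by -1.48 and -1.21. Egr4 was well above background on 4 arrays, 2 of them lacZ and 0 of them MGT, so no fold is given for it, though it is among the 21 and among those counted as lower. At day 3, 2 were higher and 14 lower, and from day 3 to day 14 the difference of 12 moved up and of 2 moved down, with a median of 0.53, beside 0.19 for the members and -0.03 over all genes.
Of 12 bZIP partners and inhibitors of AP-1, 1 was higher and 6 were lower: Ddit3 at -0.90, Batf2 at -0.88, Jdp2, a repressor that dimerises with JUN, at -0.86 and Atf4, a factor of the stress response, at -0.54. SRF, its cofactors and MAP kinases had 5 higher and 6 lower of 19, with a median of -0.06. The SRF cofactor gene Mrtfb was 0.65 higher, its relative Mrtfa differed by -0.41, and the SRF partner gene Elk3 differed by -0.44. Each of the 13 feedback inhibitors was called, 5 higher and 8 lower. Dusp10, a phosphatase of stress-activated MAP kinases, was 1.81 higher, and the growth factor signalling inhibitors Spry1 and Spry2 differed by -1.25 and -1.13, with the phosphatase gene Dusp2 at -0.83.
Of 19 genes known as AP-1 targets, 14 of them above background on all arrays, 4 were higher and 11 lower, with a median of -0.40. The matrix metalloproteinase gene Mmp3 differed by -2.83 and the cytokine gene Il6 by -1.32, while the cytokine gene Lif was 1.21 higher and the growth factor gene Hbegf 1.17 higher. Of 12 genes known as EGR targets, 2 were higher and 7 lower, with a median of -0.30, led by F3, tissue factor, at -2.69 and Id3 at -1.17, with Vegfa at -0.77 and Icam1 at -0.75. Heat shock genes had 2 higher and 6 lower of 8, with a median of -0.23, and Hspd1 at -0.51, Hspe1 at -0.43, Hsph1 at -0.39 and Hspa8 at -0.33. Of all genes 23.3% were called higher and 40.7% lower, and these counts are descriptions beside it. Over the same days 0 of 10 macrophage markers were called, and 2 of 10 fibroblast markers were higher and 8 lower. Of 8 endothelial markers 0 were higher and 7 lower, but only 4 of the 8 were above background on all arrays. Their part in the members' differences was not tested.

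**Figure D4:**
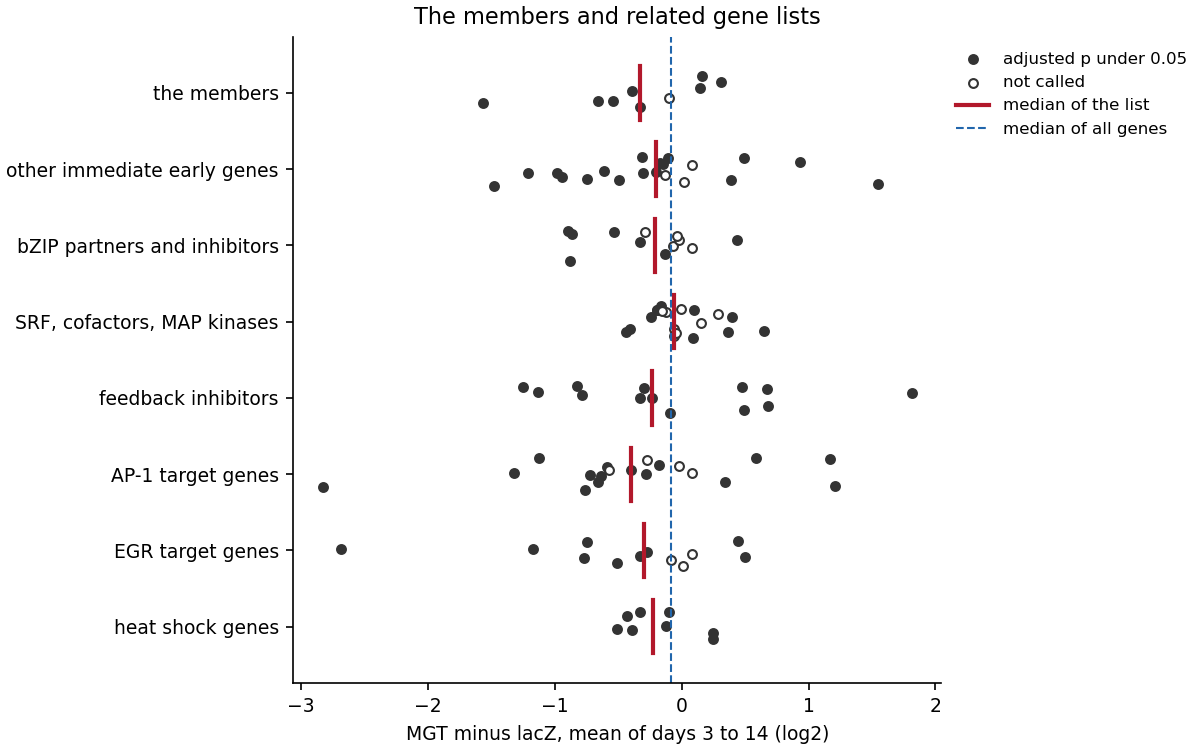
MGT minus lacZ difference averaged over days 3 to 14 (log2) of every measured gene of the members and of 7 related lists, with filled points past the threshold, the list's median as a bar and the median of all genes, -0.086, as a dashed line. Egr4, which was above background on none of the MGT arrays, is not drawn. The members run from -1.57 for Fosl1 to 0.31 for Egr2, and the AP-1 targets reach from -2.83 to 1.21.

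Likeness of pattern was taken as Pearson's r over the 11 group means, among 13410 genes above background on all arrays, and is a description because the means share arrays and slides. The gene most like Fos was Egr1 (r = 0.968), and the next was Ipmk (0.908), an inositol phosphate kinase gene. Egr1 was most like Fos and then Bclaf1 (0.950). The closest genes to Fosl1 were Thumpd1 (0.995) and Wdr43 (0.994), a ribosome biogenesis factor gene, and those to Junb were Csrnp1 (0.971), itself on the immediate early list, and Trim25 (0.966). Jun was closest to Elk3 (0.969) and Csnk1a1 (0.968), Jund to Plekhb1 (0.965) and Pkp3 (0.964), and Fosl2 to Afg3l2 (0.951) and Col18a1 (0.910). Fosb was closest to Trnau1ap (0.990) and Lbr (0.980), and Egr2 to Otud1 (0.957) and Tiparp (0.946). The mean of Fosb was -0.69 at day 0 and between -3.22 and -2.51 in the other groups. The r values of Fosb thus rest largely on day 0. Among the members, Junb and Fosl1 had r = 0.895, Egr1 and Egr2 0.784, and Fosl2 and Jund -0.50.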

How the data were processed

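Total RNA was measured on 22 1-colour Agilent arrays, 2 per group. Per the file headers, Agilent Feature Extraction 10.7.3.1 gave the deposited processed spot intensity by subtracting background and detrending each array, with no scaling between arrays. A second deposited table holds a normalized intensity for each gene name and array. The submitters' processing notes name limma, and its scale and making are otherwise not given in the sources used here. Its column medians were 198 to 206, and it served as an alternative only.

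From the deposited processed intensity, log2 values were taken relative to the 75th percentile of the array's non-control spots. Outlier spots were dropped, 0 spots were saturated, and spots sharing a probe were averaged. A probe was kept if both arrays of some group had it well above background (38800 of 55681 probes). Names came from accessions or symbols, and the brightest kept probe stood for its gene, which left 18056 genes. Probe positions follow the array design, on mm9. With limma 3.58.1 in R 4.3.3, lmFit and eBayes fitted 11 group means to all arrays (residual degrees of freedom 11, prior 1.66). Benjamini-Hochberg adjustment ran over all genes in each of 16 comparisons, with a threshold of 0.05. The script was tested on simulated data. The number of arrays, 2 a group, limits the precision.

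The members and lists were chosen with earlier results of these data known. All members are named, with the 2 genes most like each over the group means and, per list, up to 4 called genes with the largest averaged difference. A gene that this rule names is not reported here. Slides were read from the headers. Alternatives were normexp background correction (offset 50), the deposited table, quantile normalization, a 75th percentile over probes always above background, no filter and a stricter filter on dim probes, the mean of a gene's probes, only the arrays of a comparison, the replicate number as a block, each slide alone, and each array left out.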

Additional observations from a re-analysis of the deposited data

Results flagged for a closer look

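The difference between MGT and lacZ cells changed from day 3 to day 14 for 4 members, where 27.6% of all genes were called. From day 3 to day 14 it moved by 1.50 for Egr2 (SE 0.17, adjusted p = 5.36e-05), by 1.03 for Fosl1 (SE 0.14, adjusted p = 0.000226), by 0.66 for Egr1 (SE 0.15, adjusted p = 0.00496) and by -0.59 for Jund (SE 0.13, adjusted p = 0.00482), on the log2 scale. For Egr2 and Egr1 the sign turned after day 3, but the Egr1 difference at day 14 was only 0.089 and was not called. For Fosl1 the gap narrowed while its level fell from day 3 to day 14 with both vectors. It fell from -1.54 to -3.41 in MGT cells and from 0.46 to -2.45 in lacZ cells. For Jund the gap opened, and this change missed the threshold in a fit of only the arrays concerned. Day 14 MGT lay on a slide of its own, so slide and group cannot be told apart there. Between day 3 and day 7, each with both vectors on 1 slide, the difference moved by 1.48 for Egr2 (SE 0.17, adjusted p = 0.000116) and by 1.09 for Egr1 (SE 0.15, adjusted p = 0.000284). This comparison was chosen after the values were seen, and 12.2% of all genes were called in it.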

How the results depend on the processing

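With 2 arrays a group, single calls near the threshold moved easily. Over all members and comparisons, leaving out 1 array kept the side of the threshold in 745 values, lost 36 calls and added 11. The other settings kept it in 1379, lost 64, added 13 and turned the sign of 2 called values: within the slide of days 3 and 5, the average was -0.095 for Egr1 and -0.31 for Egr2. That average covers days 3 and 5 only, where the differences were -0.57 and 0.38 for Egr1 and -0.82 and 0.21 for Egr2. Called members at day 5 numbered 3 with the deposited table, against 5 in the values given here, where 32.5% and 38.1% of all genes were called. At day 10 they numbered 4 with only the arrays of the comparison, against 8, where 18.2% and 39.4% of all genes were called. At day 14 they numbered 2 with only its arrays, against 4, where 14.9% and 47.6% of all genes were called. For day 10 minus day 7 the fits of only 4 arrays called 0 members in MGT cells, against 2, and 0 in lacZ cells, against 3, by limma. They called 2 of all genes in MGT cells, against 824, and 0 in lacZ cells, against 1625. These fits have fewer arrays to estimate the spread from.

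No pairing by replicate number was seen. Deviations of same-numbered arrays of a day correlated at -0.03 to 0.09 (5 pairs), beside -0.09 to 0.16 over all 55 pairs of groups. These values cannot tell whether such arrays shared an animal, which the labels do not give. With the replicate block, 8 members were called on average, and 5, 5, 4, 8 and 4 on days 3, 5, 7, 10 and 14. Of all genes 63.9% were called on average in that fit, and 30.2%, 37.8%, 37.1%, 39.2% and 47.3% on those days. With a replicate block within day the count at day 10 was 6, where 34.8% of all genes were called. Without the second day 14 lacZ array more members were called at day 14 and on average, and the share of all genes in that fit is not given.

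A different 75th percentile, over probes above background on all arrays, moved the median of all genes by 0.12 in the day 14 difference between vectors, and normexp moved it by -0.15. Fos averaged over days was called with normexp (-0.11, adjusted p = 0.0317) and not in the values given here, and Egr1 averaged was not called with normexp (0.14, adjusted p = 0.0539). Signal over background limits Egr3 and Egr4, for which no level is given.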

Other observations

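The AP-1 target list, with 14 of its 19 genes above background on all arrays, also moved with the day. At day 5 against day 3, 3 of its 19 genes were higher and 11 lower in MGT cells, and 2 were higher and 13 lower in lacZ cells, with medians of -1.38 and -0.96. Mmp3, a matrix-degrading enzyme of activated fibroblasts, differed by -4.06 in MGT cells and by -2.51 in lacZ cells, and Il6 by -1.44 and -0.73. Lif differed by -0.42 in MGT cells and by -0.96 in lacZ cells. Hbegf, a ligand of the EGF receptor, was 0.84 higher in MGT cells and differed by -0.29 in lacZ cells. All 8 of these differences were called, beside 27.5% of all genes in MGT cells and 29.6% in lacZ cells.

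At day 14 against day 0, 3 of the 19 were higher and 15 lower in MGT cells, and 3 were higher and 14 lower in lacZ cells. Of all genes 70.5% were called in MGT cells, 37.4% lower, and 68.9% in lacZ cells, 35.5% higher and 33.4% lower. Mmp3 differed by -4.43 in MGT cells and by -0.70 in lacZ cells, and Hbegf by 0.88 and -0.52. Day 14 MGT and day 0 lie on different slides, so in MGT cells slide and day cannot be told apart.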
